A study of Rattus norvegicus with 10 samples.

Results

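The enzymes that attach and remove ubiquitin were examined in rat liver after a single oral dose of RG3487. Members were all probe sets annotated to exactly 1 gene symbol that begins with Uba, Ube2, Ube3, Ube4, Usp or Cul followed by a number. The rule found 130 of 15859 probe sets, which stand for 81 of 9378 genes: 5 Uba genes on 7 probe sets, 25 Ube2 genes on 42, 7 Ube3 and Ube4 genes on 14, 37 Usp genes on 56 and 7 Cul genes on 11. Livers came from 10 Wistar Han rats, CRL:WI (Han), aged 6 to 8 weeks, with 1 array per animal. In the vehicle group 5 rats received deionized water by gavage, and in the other group 5 rats received RG3487 at 180 mg/kg, each in a volume of 5 ml/kg. Sample descriptions and the treatment protocol give 24 h after dosing, whereas the series text names 2 h, and the 24 h of the samples is used here. Cages held 5 rats each, and whether a cage mixed the treatments is not given, so cage and treatment cannot be told apart. RG3487 is a compound known to act on nicotinic and serotonin receptors. The labels name each animal separately, and no sex is given in the sources used here.

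Ubiquitin is a small protein that is attached to other proteins in a relay. An activating enzyme (E1, the Uba genes) charges it, a conjugating enzyme (E2, the Ube2 genes) carries it, and a ligase (E3) places it on the substrate. Cullins are the scaffolds of the largest class of ligases and are themselves switched on by the ubiquitin-like protein NEDD8. Ubiquitin-specific proteases (the Usp genes) take ubiquitin off again. In liver this system sets the lifetime of metabolic enzymes and transcription factors, among them NRF2, which is held down by a cullin ligase built on the Cul3 product. A few names in the families have other roles: Uba2, Uba3 and Uba7 activate the related modifiers SUMO, NEDD8 and ISG15, Usp39 is a splicing factor, and Usp6nl encodes a regulator of a Rab GTPase.

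Values are Affymetrix signals on a linear scale, which are arbitrary units and are not comparable between genes. Changes are differences of log2(signal + 16), RG3487 minus vehicle, with the standard error from limma, and a call required an adjusted p (Benjamini-Hochberg, over the 11894 probe sets tested) under 0.05. Probe sets in the dimmest 25% by mean log2 signal were not tested, which left 115 of the members' probe sets. A gene was represented by its tested probe set with the highest mean, which gave 75 member genes among 7727. The other 6 genes, Uba7, Ube2c, Ube3d, Usp27x, Usp29 and Usp54, had no probe set above the filter.

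Of the 75 genes tested, 20 rose and 1 fell with RG3487. Over all 7727 genes, 22.3% passed as higher and 7.4% as lower, against 26.7% and 1.33% of the members, so the higher share lay near that of the array. Counted by probe set, 23 of 115 rose and 2 fell, 20% and 1.74% against 20.5% and 7.16% of all probe sets. The median log2 change of the 75 genes was 0.16, beside 0.09 over all genes. Most changes were small, and 1 member, Ube3al1, passed with a change of at least 1.5-fold. In 15 member genes every RG3487 animal lay above every vehicle animal, and in 0 did every RG3487 animal lie below, where over the array this held for 15.5% and 4.78% of genes. By family, 0 of 4 Uba genes passed, 7 of 24 Ube2 genes rose, 3 of 6 Ube3 and Ube4 genes rose, 8 of 34 Usp genes rose, and 2 of 7 Cul genes rose while 1 fell. These shares were not compared between families by a test.

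**Figure D1:**
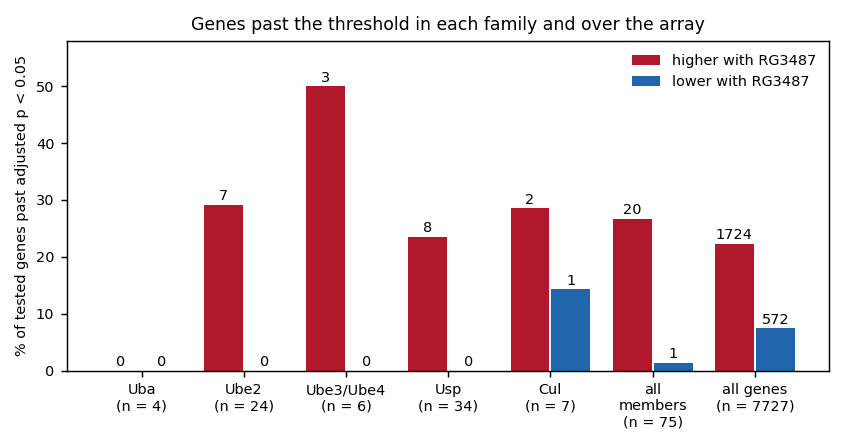
Bars give the percentage of tested genes that passed adjusted p under 0.05 as higher (red) or lower (blue) with RG3487 in each family, in all members and over all genes, with the number of genes above each bar. The members' higher share (20 of 75) lies close to that of all genes (1724 of 7727), and Cul7 makes the only lower bar among the families.

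Mean signal differed little between arrays (at most 331.8), and the median per array ran from 85 to 96. The scaling bears on every count here. As deposited the median log2 change of all probe sets was 0.08. With quantile normalization it was 0.01, with arrays centred on their medians 0.00, and with scaling by 18 hybridization control probe sets (also named spike-in scaling below) 0.28. The higher share of all calls was 74.1%, 54.4%, 50.4% and 94.97% in the same order. Relative to that shift the members' median stood 0.07 higher as deposited and 0.06 with quantile normalization. The other scalings move all probe sets of an array by the same log2 amount, so there the 0.07 could not change. Of 75 member genes those that rose and fell numbered 9 and 4 with quantile normalization, 12 and 3 with centring, and 54 and 0 with hybridization control scaling. Counts over all genes were 1022 and 783 of 7722, 992 and 867 of 7727, and 4538 and 250 of 7727 in the same order. Hybridization control scaling assumes equal amounts of the controls on all arrays. Of the 7 hepatocyte markers examined, all were measured and 3 passed as lower (Apoa1, Serpina1 and Tat), with summed signals of 47091 to 49573 in vehicle and 38985 to 46300 with RG3487. Of Kupffer cell markers 2 of 5 were lower, with sums of 2309 to 2852 and 1885 to 2420, and of endothelial markers 1 of 4 (2168 to 2430 and 1813 to 2123). Stellate markers gave 1 higher of 5 tested (1297 to 1723 and 1467 to 1645). Bile duct (114 to 181 and 141 to 276), lymphocyte (76 to 96 and 52 to 103) and red cell markers (2775 to 4105 and 2616 to 3483) gave 0 calls among 1, 1 and 2 tested, although these lists held few measured genes. Over all genes 7.4% passed as lower and 22.3% as higher. No marker was at 0. The part of these shifts in the members' changes was not tested, and in bulk liver fewer cells of a type and less RNA per cell cannot be told apart.

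The activating enzymes showed no call. Uba1, the main ubiquitin E1, read 445, 414, 390, 371 and 425 in the vehicle animals and 455, 528, 441, 391 and 418 with RG3487 (log2 change 0.12, 95% interval -0.06 to 0.30). These groups overlapped. Uba6, the other ubiquitin E1, had 3 probe sets with log2 changes of -0.12, -0.02 and 0.21 (adjusted p = 0.261, 0.913 and 0.13), so its direction depended on the probe set. Uba2, the catalytic subunit of the SUMO E1, changed by 0.20 ± 0.09 (SE; adjusted p = 0.123), and passed without RG3487 animal 3 (0.27, adjusted p = 0.0138). Uba3, its counterpart for NEDD8, read 497 to 536 in vehicle and 544 to 586 with RG3487. All 5 RG3487 animals lay above all vehicle animals, yet the difference was 0.10 ± 0.05 and did not pass (adjusted p = 0.145). Uba7, the ISG15 E1, was too dim to be tested, at 28.8 ± 4.9 in vehicle and 31.8 ± 8.6 (SD, n = 5) with RG3487.

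**Figure D2:**
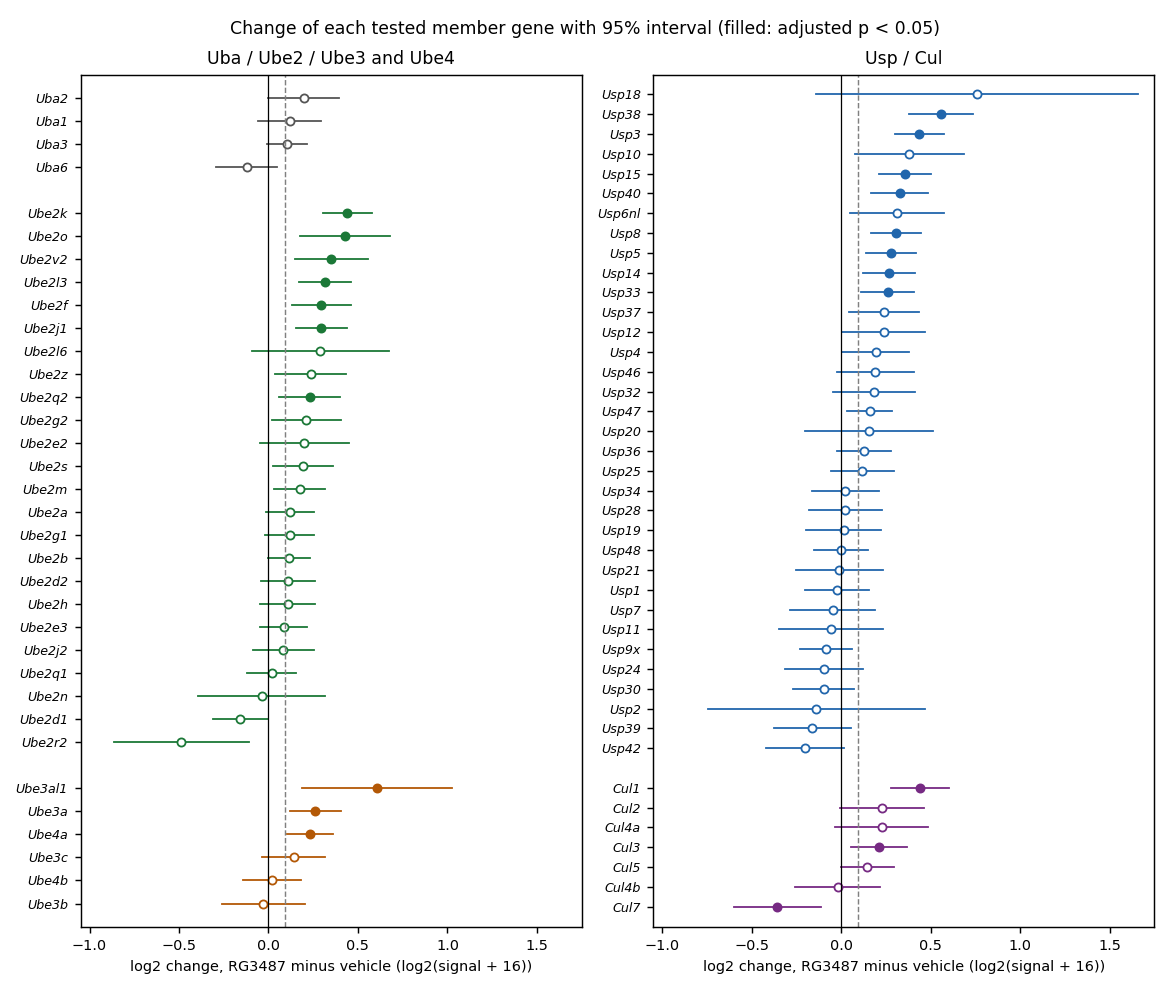
Each point is the log2 change of 1 member gene, RG3487 minus vehicle, with its 95% interval from limma. Filled points passed adjusted p under 0.05, the solid line marks no change and the dashed line the median of all genes (0.09). Of the 75 points 58 lie to the right of 0, beside 5115 of all 7727 genes. Cul7 is the only filled point to the left, and the interval of Usp18 is the widest.

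Among the conjugating enzymes 7 of 24 genes rose and 0 fell. Ube2k, which builds ubiquitin chains that mark proteins for the proteasome, read 796, 882, 842, 843 and 810 in vehicle and 1124, 1117, 1113, 1049 and 1300 with RG3487. The groups were far apart relative to their spread (834.6 ± 33 and 1141 ± 94, SD, n = 5; log2 change 0.44 ± 0.06, 1.36-fold, adjusted p = 0.000522). Its other tested probe set, which was dimmer, changed by 0.08 ± 0.11 without passing. Ube2l3, an E2 that serves HECT and RING-between-RING ligases, read 713, 791, 840, 678 and 701 in vehicle and 970, 926, 920, 871 and 957 with RG3487 (0.32 ± 0.07, adjusted p = 0.00482). The lowest RG3487 animal was thus above the highest vehicle animal, whereas its other probe set changed by 0.10 ± 0.06 without passing. Ube2f, a conjugating enzyme for NEDD8, read 329, 313, 286, 300 and 272 against 349, 356, 343, 389 and 425 (0.30 ± 0.08, 1.23-fold, adjusted p = 0.013), again without overlap. Ube2j1, an E2 of the endoplasmic reticulum membrane that serves the disposal of misfolded proteins, read 138, 130, 141, 151 and 138 against 182, 158, 180, 178 and 177 (0.30 ± 0.07, adjusted p = 0.00618). Here too the groups were separate, and RG3487 animal 2 was the lowest of its group.

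The other Ube2 genes that rose had overlapping groups. Ube2o, a large enzyme with both E2 and E3 activity, read 41, 45, 48, 36 and 53 in vehicle and 57, 78, 72, 50 and 72 with RG3487 (0.43 ± 0.12, adjusted p = 0.0167), and RG3487 animal 4 lay inside the vehicle range. Ube2v2, a variant without the catalytic cysteine that partners Ube2n, rose by 0.35 ± 0.09 (adjusted p = 0.0162), with RG3487 animal 3 at 375 below the highest vehicle animal at 390. Ube2q2 passed narrowly (0.23 ± 0.08, adjusted p = 0.0452), and it lost its call under 14 of 21 alternatives (adjusted p up to 0.262), among them the fits without each of the animals other than RG3487 animal 2. The other probe set of Ube2q2 changed by 0.20 ± 0.10 without passing (adjusted p = 0.14). Ube2n, the E2 for the chains used in signalling, went opposite ways on 2 probe sets (-0.04 ± 0.16 and 0.26 ± 0.12, adjusted p = 0.882 and 0.126). So did Ube2g2, with 0.21 ± 0.09 and -0.00 ± 0.11, of which neither passed. Ube2b, which acts with Rad18 in DNA damage tolerance, changed by 0.12 ± 0.05 (adjusted p = 0.131).

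Some Ube2 genes were picked out after their values were seen. Ube2r2, a partner of cullin ligases, read 809, 758, 509, 716 and 754 in vehicle and 413, 419, 671, 667 and 383 with RG3487. In the RG3487 group 3 animals lay below every vehicle animal and 2 lay within the vehicle range (-0.49 ± 0.17, adjusted p = 0.0539). It passed as lower under 7 of 21 alternatives, among them quantile normalization (adjusted p = 0.042) and the fits without vehicle animal 3 (0.0216), RG3487 animal 3 (0.0216) or RG3487 animal 4 (0.0278), with a range of 0.0216 to 0.148. Ube2d2 had 3 probe sets, of which 1 rose (0.30 ± 0.07, adjusted p = 0.00703) while the brighter ones changed by 0.11 ± 0.07 and 0.15 ± 0.07 without passing. Ube2c, the E2 of the mitotic anaphase-promoting complex, lay under the signal filter, at 19, 23, 20, 18 and 12 in vehicle and 20, 39, 98, 68 and 36 with RG3487. Of the RG3487 animals 4 exceeded all vehicle animals, and without the filter the probe set passed as higher (0.88 ± 0.25, adjusted p = 0.0243). The remaining Ube2 genes without a call were Ube2a, Ube2d1, Ube2e2, Ube2e3, Ube2g1, Ube2h, Ube2j2, Ube2l6, Ube2m, Ube2q1, Ube2s and Ube2z. The 17 uncalled Ube2 genes lay between -0.49 and 0.29, 14 of them above 0. On the array 5115 of all 7727 genes, calls included, lay above 0.

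Promoter sequence was read for 67 of the 81 genes from RefSeq (GRCr8), as 68 promoters (Ube2e2 has 2) of the 250 bases before and 50 bases after the annotated start. Both strands were searched for TGACNNNGC, the core of the antioxidant response element bound by NRF2, and for the palindromic core of the nuclear respiratory factor 1 site, which is spelled out in capitals in the Ube2k and Usp5 promoters shown. The motifs do not overlap in these sequences. TGACNNNGC occurred in 17 of 68 member promoters (25%), in 4 of the 16 promoters whose gene rose (25%), in 12 of the 48 whose gene was tested and did not rise (25%), and in 12.1% of all 33469 promoters. Ube2g2 had 3 matches to it and Usp20 had 2, and neither of these genes was called. The members' promoters were richer in G and C (median 64.8% against 51.7%). The nuclear respiratory factor 1 core occurred in 2 member promoters, Ube2k and Usp5, both of genes that rose, and in 0.852% of all promoters. A match describes the letters only. The promoters of these members, and that of Ube2j1 with 2 matches to TGACNNNGC, are shown 5′ to 3′ with the matches in capitals, since all of these genes rose without overlap between the groups. They lie at chr14:43072165-43072464, minus strand, at chr4:159320907-159321206, minus strand, and at chr5:52218557-52218856, plus strand. Counting the start as base 1, the match begins at base 1 in Ube2k and at base -56 in Usp5, and those of Ube2j1 begin at bases -77 (minus strand) and -39 (plus strand).
Ube2k: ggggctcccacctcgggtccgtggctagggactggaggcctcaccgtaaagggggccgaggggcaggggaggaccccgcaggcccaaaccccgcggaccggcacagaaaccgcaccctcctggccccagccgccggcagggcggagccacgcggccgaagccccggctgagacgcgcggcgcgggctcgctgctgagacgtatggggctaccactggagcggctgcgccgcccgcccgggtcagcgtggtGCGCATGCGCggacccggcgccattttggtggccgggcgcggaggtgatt
Usp5: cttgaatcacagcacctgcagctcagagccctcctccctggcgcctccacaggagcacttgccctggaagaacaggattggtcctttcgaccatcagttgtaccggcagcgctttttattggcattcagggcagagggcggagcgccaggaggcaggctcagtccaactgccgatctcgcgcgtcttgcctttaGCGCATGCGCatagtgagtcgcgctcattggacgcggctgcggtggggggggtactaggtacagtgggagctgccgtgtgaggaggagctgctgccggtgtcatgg
Ube2j1: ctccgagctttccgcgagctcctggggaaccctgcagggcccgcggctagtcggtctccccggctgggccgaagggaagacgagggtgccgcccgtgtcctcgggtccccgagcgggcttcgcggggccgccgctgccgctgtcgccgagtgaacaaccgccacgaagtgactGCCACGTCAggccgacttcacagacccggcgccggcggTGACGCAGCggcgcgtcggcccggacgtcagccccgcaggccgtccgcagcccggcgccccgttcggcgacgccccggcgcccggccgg

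Among the ligases of the Ube3 and Ube4 families 3 of 6 genes rose. Ube3a, a HECT ligase known from its imprinted expression in neurons, read 266, 261, 274, 236 and 227 in vehicle and 301, 297, 303, 314 and 313 with RG3487. The groups did not overlap (0.26 ± 0.06, 1.2-fold, adjusted p = 0.0113), another of its probe sets also passed (0.18 ± 0.06, adjusted p = 0.0451), and the dimmest changed by 0.04 ± 0.10. Ube4a, a U-box enzyme that extends ubiquitin chains, read 388, 349, 369, 335 and 388 against 445, 426, 422, 440 and 424 (0.23 ± 0.06, 1.17-fold, adjusted p = 0.013). All RG3487 animals were higher, and its 3 other probe sets were positive without passing (0.12 to 0.28). Ube3al1, whose symbol marks it as like Ube3a, read 145, 97, 143, 116 and 111 against 109, 283, 194, 191 and 228 (0.61 ± 0.19, 1.52-fold, adjusted p = 0.0345). RG3487 animal 1 lay among the vehicle animals, and the call was lost under 10 of 21 alternatives (adjusted p up to 0.082), among them the fits without vehicle animal 2, 4 or 5 or without RG3487 animal 2, 3, 4 or 5. Ube3b (-0.03 ± 0.11), Ube3c (0.14 ± 0.08) and Ube4b (0.02 ± 0.08, and -0.08 ± 0.11 on its other probe set) did not pass. With quantile normalization 0 of the 6 genes passed and with centring only Ube3a did. On the whole array 1022 of 7722 and 992 of 7727 genes rose under these scalings.

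Of the ubiquitin-specific proteases 8 of 34 genes rose and 0 fell. Usp38 had the largest log2 change among these calls, reading 223, 237, 237, 191 and 232 in vehicle and 303, 356, 301, 366 and 360 with RG3487. Every RG3487 animal exceeded every vehicle animal by a wide margin (0.56 ± 0.08, 1.47-fold, adjusted p = 0.000689), and its dimmer probe set changed by 0.46 ± 0.16 without passing (adjusted p = 0.0546). Usp3, which removes ubiquitin from histones, read 260, 224, 261, 266 and 237 against 360, 334, 342, 349 and 330 (0.44 ± 0.06, 1.35-fold, adjusted p = 0.000647). Usp15, a regulator of growth factor signalling, read 109, 103, 104, 104 and 91 against 126, 135, 134, 143 and 138 (0.36 ± 0.07, 1.28-fold, adjusted p = 0.00252). In both genes the groups were separate.

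The other proteases that rose had smaller log2 changes. Usp5, which takes apart unanchored ubiquitin chains, read 224, 236, 241, 224 and 196 in vehicle and 272, 275, 267, 281 and 278 with RG3487, with a narrow and separate RG3487 group (0.28 ± 0.06, 1.21-fold, adjusted p = 0.00824). Usp14, which trims ubiquitin at the proteasome, read 578, 564, 523, 612 and 537 against 694, 684, 600, 737 and 688 (0.27 ± 0.07, adjusted p = 0.012). Only RG3487 animal 3 overlapped the vehicle range. Usp8, which acts on receptors at endosomes, rose from 302.6 ± 15 to 378.4 ± 26 (SD, n = 5; 0.31 ± 0.06, adjusted p = 0.00463) and Usp40 from 169 ± 13 to 216 ± 16 (0.33 ± 0.07, adjusted p = 0.00693), both without overlap. The other probe set of Usp8 changed by 0.23 ± 0.09 without passing (adjusted p = 0.0639). Usp33 rose by 0.26 ± 0.07 (adjusted p = 0.0156), with RG3487 animal 2 at 692 below vehicle animal 1 at 699.

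**Figure D3:**
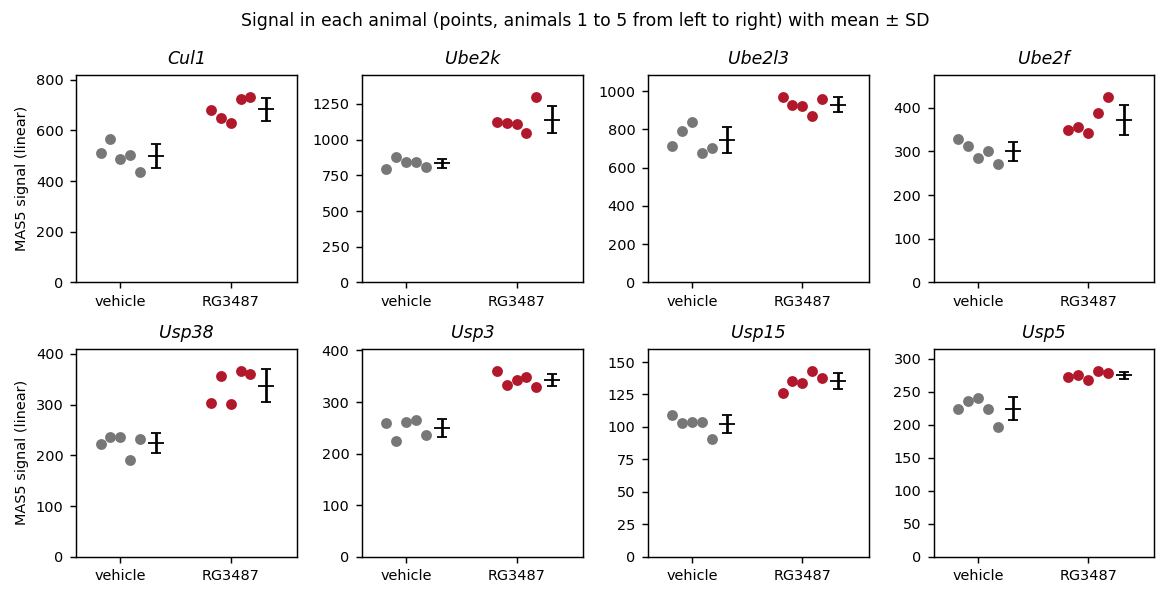
Each panel plots the MAS5 signal of 1 gene on a linear axis from 0, with a point for each animal and the mean ± SD (n = 5 per group) beside the points. These are the 8 members whose call held under every alternative fit of the same probe set, and in each panel all RG3487 points lie above all vehicle points.

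Several proteases did not pass. Usp7, which stabilises the p53 ligase encoded by Mdm2, had 1 probe set at -0.05 ± 0.11 and others at 0.21 ± 0.08 and 0.20 ± 0.08 (adjusted p = 0.78, 0.073 and 0.073). Usp1 likewise split, with -0.03 ± 0.08 and 0.12 ± 0.08. Usp25 changed by 0.12 ± 0.08 (adjusted p = 0.296). Chosen after its values were seen, Usp47 passed on its dimmer probe set (0.25 ± 0.06, adjusted p = 0.0115) and not on its brighter one (0.16 ± 0.06, adjusted p = 0.0572), although neither had overlapping groups. The brighter one passed without RG3487 animal 3 (adjusted p = 0.0469). Usp10, a deubiquitinase of p53 also chosen afterwards, read 235 to 368 in vehicle and 308 to 484 with RG3487 (0.38 ± 0.14, adjusted p = 0.0614), and passed without vehicle animal 1 (0.0265) or RG3487 animal 3 (0.0365). The remaining genes were Usp2, Usp4, Usp6nl, Usp11, Usp12, Usp19, Usp20, Usp21, Usp24, Usp28, Usp30, Usp32, Usp34, Usp36, Usp37, Usp39, Usp42, Usp46 and Usp48. On the array 5115 of all 7727 genes, calls included, were above 0. Of all 26 uncalled Usp genes 16 were above 0 and 10 below, from -0.20 to 0.76. The ends of that range, picked for their values, were Usp42 (-0.20 ± 0.10, adjusted p = 0.15), with 4 RG3487 animals below every vehicle animal, and Usp18.

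Usp9x, a large X-linked protease picked out after its values were seen, had a lower mean with RG3487 on all 4 of its probe sets. Its brightest probe set read 293, 339, 322, 288 and 298 in vehicle and 313, 281, 302, 284 and 267 with RG3487 (-0.08 ± 0.07, adjusted p = 0.372), with overlapping groups. Another read 295, 265, 226, 210 and 194 against 178, 205, 170, 166 and 161 and fell (-0.39 ± 0.11, 1.31-fold, adjusted p = 0.0181), with only RG3487 animal 2 inside the vehicle range. The remaining tested probe set changed by -0.16 ± 0.11 (adjusted p = 0.303). The dimmest lay under the filter and read 24, 30, 27, 28 and 25 against 13, 21, 19, 19 and 14, with separate groups. Without the filter this probe set passed as lower (-0.37 ± 0.10, adjusted p = 0.0208). With hybridization control scaling the brightest probe set turned to 0.11, and the call of the other was lost (adjusted p = 0.13, range 0.00484 to 0.13 over the alternatives).

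The members tied to interferon and ISG15, a modifier induced by interferon, varied between animals. Usp18, which removes ISG15, read 68, 71, 82, 42 and 104 in vehicle and 304, 110, 32, 245 and 120 with RG3487. RG3487 animals 1 and 4 stood far above the others and animal 3 lay below every vehicle animal, so the change had a wide error (0.76 ± 0.41, 95% interval -0.14 to 1.66, adjusted p = 0.19). Without RG3487 animal 3 the change was 1.16 ± 0.28 and passed (adjusted p = 0.0115), the single alternative of 21 in which it did. Ube2l6, the E2 for ISG15, read 178, 168, 199, 120 and 183 against 232, 164, 164, 327 and 190 (0.29 ± 0.18, adjusted p = 0.237). RG3487 animals 1 and 4 were again the highest. Both genes were chosen after their values were seen.

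**Figure D4:**
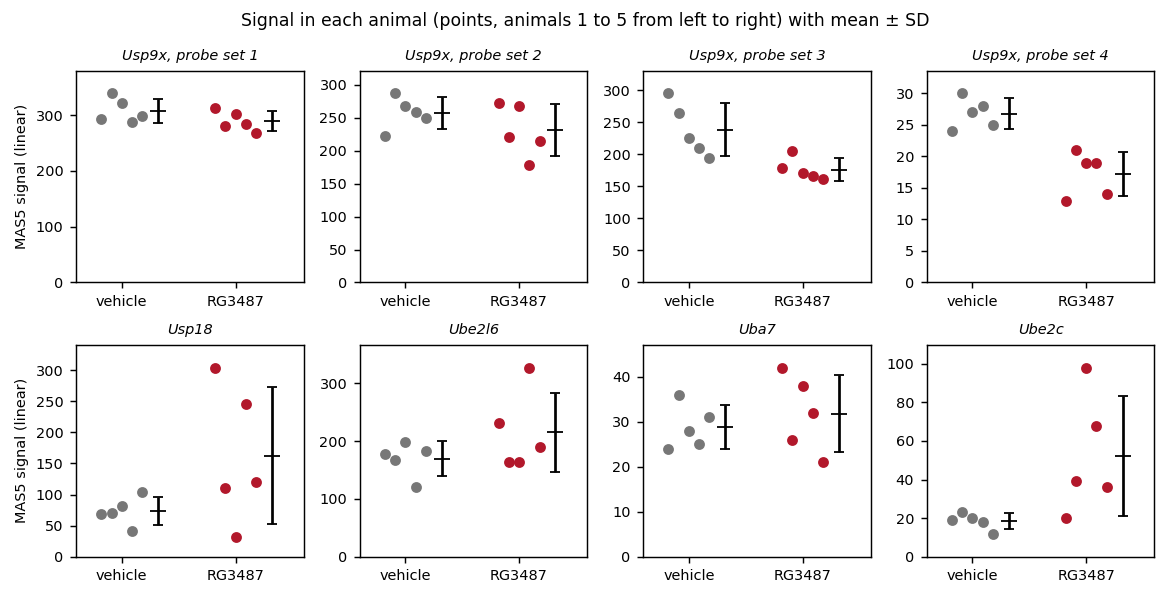
Panels plot the MAS5 signal on a linear axis from 0, a point for each animal, with the mean ± SD (n = 5 per group) beside the points. The upper row holds the 4 probe sets of Usp9x from brightest to dimmest, all with a lower mean after RG3487; in the lower row Usp18 and Ube2l6 are highest in RG3487 animals 1 and 4, and Uba7 and Ube2c are the dim members discussed in the text.

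Among the cullins 2 of 7 genes rose and 1 fell. Cul1, the scaffold of the SCF ligases, read 510, 566, 487, 503 and 435 in vehicle and 679, 650, 631, 726 and 733 with RG3487 (500.2 ± 47 and 683.8 ± 45, SD, n = 5). The groups were separate (0.44 ± 0.07, 1.36-fold, adjusted p = 0.00139). Cul3, the scaffold of the ligase that uses Keap1 as adaptor, read 690, 738, 594, 651 and 683 against 814, 720, 711, 832 and 825 (0.21 ± 0.07, 1.16-fold, adjusted p = 0.0441). RG3487 animals 2 and 3 lay within the vehicle range, and the call was lost under 12 of 21 alternatives (adjusted p up to 0.172), among them the fits without vehicle animal 1, 3, 4 or 5 or RG3487 animal 1, 4 or 5. The other, dimmer probe set of Cul3 changed by 0.15 ± 0.09 without passing (adjusted p = 0.224). Cul7, an atypical cullin that pairs with the F-box protein Fbxw8, fell from 48, 45, 63, 45 and 40 to 29, 43, 34, 35 and 29 (-0.36 ± 0.11, adjusted p = 0.0321). RG3487 animal 2 alone lay inside the vehicle range, and the signals were dim. Its call was lost in 4 of the 14 alternatives that tested it: without RG3487 animal 1, 4 or 5 (adjusted p = 0.0703, 0.0534 and 0.0758) and with hybridization control scaling (0.258; range 0.0148 to 0.258). Cul2 (0.23 ± 0.11), which carries the VHL adaptor, Cul5 (0.15 ± 0.07), which carries SOCS-box adaptors, and the Ddb1-bound Cul4a (0.23 ± 0.12) and Cul4b (-0.02 ± 0.11) did not pass.

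Genes around the cullins were described from lists of the pathway. The NEDD8 route, which activates cullins, had no list of its own. For it 12 measured genes, counting the adaptor exchanger Cand1, were put together from the lists and the members. This was done with results of these data known, so the count is a description only. Genes of the set, Cand1 among them, are counted again in their own lists. Of the 12 genes 5 rose (Nedd8, Nae1, Ube2f, Rnf7 and Cand1), 0 fell and 7 did not pass. Over all genes 22.3% rose and 7.4% fell. Nedd8 itself rose from 1127, 1241, 1338, 1356 and 1225 to 1603, 1700, 1624, 1907 and 1747 (0.44 ± 0.07, 1.36-fold, adjusted p = 0.000697). Nae1, the partner of Uba3 in the NEDD8 E1, rose from 204.2 ± 5.4 to 254.8 ± 27 (SD, n = 5; 0.29 ± 0.07, adjusted p = 0.0121). Rnf7, the RING subunit that works with Ube2f and Cul5, read 355 to 401 against 438 to 488 (0.26 ± 0.06, adjusted p = 0.00731). In these 3 genes, as in Ube2f, the groups were separate. Ube2m, the other E2 for NEDD8, picked after its value was seen, stood at 0.17 ± 0.07, without a call (adjusted p = 0.068), and passed without vehicle animal 1 (adjusted p = 0.0302). Besides Uba3 and Ube2m, the RING subunit gene Rbx1 (0.24 ± 0.09, adjusted p = 0.0564) and 4 genes of co-factors for NEDD8 transfer, Dcun1d1 (0.03 ± 0.09), Dcun1d2 (0.04 ± 0.09), Dcun1d4 (0.09 ± 0.07) and Dcun1d5 (0.24 ± 0.08, adjusted p = 0.05002), did not pass. With quantile normalization Nae1 and Rnf7 also missed the threshold (adjusted p = 0.0755 and 0.0516).

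The COP9 signalosome, the complex that strips NEDD8 from cullins, rose in 5 of 10 genes and fell in 0. Its higher share was 50% against 22.3% of all genes, and its median log2 change was 0.23 beside 0.09. Its catalytic subunit gene Cops5 rose by 0.34 ± 0.07 (adjusted p = 0.00604), Cops2 by 0.38 ± 0.06, Cops8 by 0.34 ± 0.07 and Gps1 by 0.24 ± 0.06. Other probe sets of Cops2 changed by 0.04 and 0.15 without passing (adjusted p = 0.737 and 0.11), and Gps1 lost its call with quantile normalization (0.0701) and with centring (0.0524). The counts were 4 and 0 with quantile normalization and 3 and 0 with centring. All genes under these scalings gave 1022 and 783 of 7722, and 992 and 867 of 7727. Of cullin partners and substrate adaptors 10 of 55 rose and 0 fell (median 0.10), a higher share of 18.2% against 22.3% of all genes. They included Cand1, which exchanges the adaptors of cullins (0.38 ± 0.08, adjusted p = 0.00446), the adaptor subunit gene Elob (0.52 ± 0.08, adjusted p = 0.000785) and Fbxo6, an F-box gene for glycoproteins (0.42 ± 0.08). With quantile normalization 5 of this list were higher and 3 lower.

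Outside the named families, other deubiquitinases rose in 5 of 23 genes and fell in 1, and their 21.7% higher lay at the 22.3% of all genes. Stambpl1, a metalloprotease of endosomes, read 47, 50, 65, 49 and 61 in vehicle and 123, 103, 94, 131 and 120 with RG3487 (0.89 ± 0.10, 1.85-fold, adjusted p = 0.000196), a larger log2 change than that of any called member. Otud6b rose by 0.52 ± 0.08, Vcpip1 by 0.44 ± 0.10, and Otud1 fell by 0.42 on the log2 scale (adjusted p = 0.00495). Other E3 ligases rose in 12 of 72 and fell in 6 (16.7% and 8.33%), a balance that became 7 and 9 with quantile normalization and 8 and 9 with centring. Under these scalings the balance over all genes was 1022 and 783 of 7722, and 992 and 867 of 7727. Mdm2, the ligase of p53, rose from 107.2 ± 11 to 227 ± 39 (SD, n = 5; adjusted p = 0.000196), Rnf181 rose by 0.48 ± 0.08 and Rnf114 by 0.43 ± 0.08. Rnf5, a ligase of the endoplasmic reticulum, changed by -0.47 ± 0.08 (adjusted p = 0.00162).

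Receptors of ubiquitin and the p97 segregase rose in 8 of 23 genes (34.8%, against 22.3% of all genes) and fell in 0, though 4 rose and 1 fell with quantile normalization and also with centring. All genes gave 1022 and 783 of 7722, and 992 and 867 of 7727, under these scalings. Tax1bp1, an autophagy receptor, rose by 0.25 ± 0.05, Rad23b, a shuttle to the proteasome, by 0.25 ± 0.06 (its other probe set, at 0.14, did not pass), Hgs, a sorter of ubiquitinated cargo, by 0.34 ± 0.08 and Bag6, a chaperone of stray membrane proteins, by 0.33 ± 0.08. In the list of other modifiers 6 of 19 rose (31.6%) and 0 fell, and 4 rose with quantile normalization and with centring. Among them were Sae1, the partner of Uba2 in the SUMO E1 (0.57 ± 0.12, adjusted p = 0.00501), and Ubl4a (0.27 ± 0.06), whose other probe set was at -0.02 and which lost its call with quantile normalization (adjusted p = 0.0701). SUMO ligases and proteases rose in 3 of 10 genes (30%, against 22.3% of all genes) and fell in 0. The 3 were Pias3 (0.57 ± 0.11), Senp3 (0.26 ± 0.08) and Senp6 (0.24 ± 0.07). With quantile normalization and with centring 1 of the 10 rose. Senp3 lost its call in 9 of 21 alternatives (adjusted p up to 0.131), among them the fits without vehicle animal 2, 3 or 5 or RG3487 animal 1, 4 or 5. Senp6 lost it in 8 of 22 (up to 0.18), among them the fits without vehicle animal 2 or 4 or RG3487 animal 4 or 5. The 4 listed ubiquitin precursor genes had no probe set of their own and were not analysed here.

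Within genes the probe sets did not always give the same call. Of 32 member genes with several tested probe sets, 26 had changes of a single sign and 6 of mixed sign. In 12 some probe sets passed and others did not, in 20 none passed, and in 0 did all pass. Probe sets annotated to several symbols were left out of the members. Of these 6, the 3 that read Ube2d2 and Ube2d3 together changed by 0.10 to 0.19, with 2 passing, and 1 of the 2 that read Ube2v1 and its copy rose by 0.43 ± 0.06 (adjusted p = 0.000485).

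Of the 21 called genes, 8 kept their call under each of 21 alternative fits of the same probe set: Cul1, Ube2f, Ube2k, Ube2l3, Usp3, Usp5, Usp15 and Usp38. Ube2f and Usp5 held only narrowly with quantile normalization (adjusted p = 0.0481 and 0.0491). With quantile normalization Cul3, Ube2j1, Ube2q2, Ube2v2, Ube3a, Ube3al1, Ube4a, Usp8, Usp14, Usp33 and Usp40 lost their calls (adjusted p = 0.0515 to 0.262). With centring Cul3, Ube2o, Ube2q2, Ube2v2, Ube3al1, Ube4a, Usp14 and Usp33 did (0.0504 to 0.185). Other probe sets of Ube2f, Ube2k, Ube2l3 and Usp38 changed by 0.25, 0.08, 0.10 and 0.46 and did not pass (adjusted p = 0.0625, 0.607, 0.254 and 0.0546). Of the 23 probe sets that rose, 8 also rose with both quantile normalization and centring. With quantile normalization the lower calls were Cul7, Usp9x, Uba6, Ube2d1, Ube2r2 and Usp24. RG3487 animal 3 was the lowest of its group in 8 of the 20 genes that rose, and without it 16 Usp probe sets rose in place of 9.

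**Figure D5:**
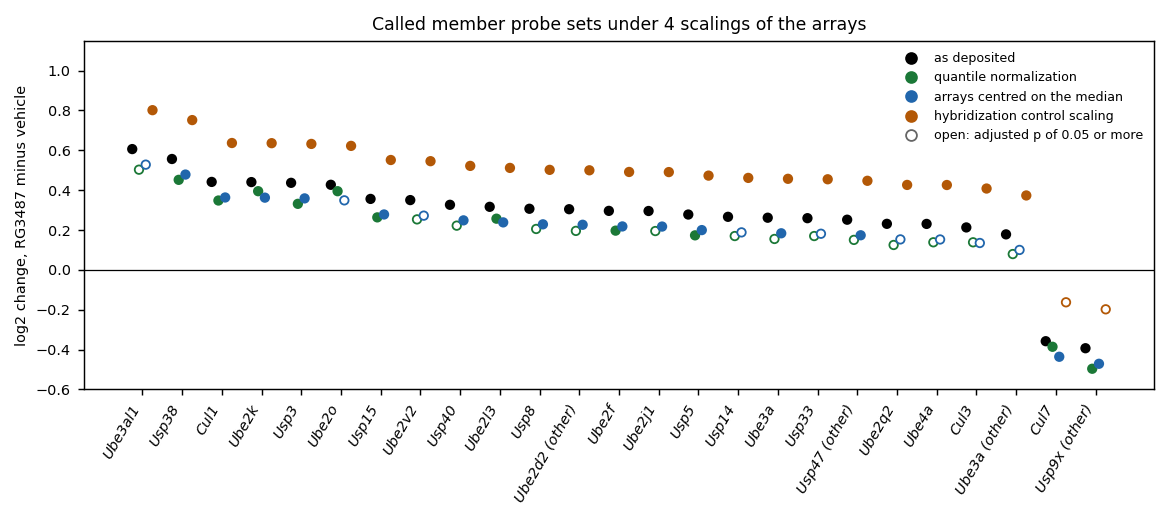
For each of the 25 member probe sets that passed as deposited, points give the log2 change, RG3487 minus vehicle, under 4 scalings of the arrays, filled where adjusted p was under 0.05. The word other marks a probe set that does not represent its gene. All 23 rises stay above 0, and hybridization control scaling lies highest in each, while with quantile normalization and with centring several points are unfilled. Centring and hybridization control scaling each move every log2 change by a fixed amount, so their place relative to the deposited points is constant.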

How the data were processed

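Liver RNA (1 ug per animal) was labelled with biotin and hybridised to Affymetrix rat arrays, 1 per animal. The authors deposited 1 MAS5 signal intensity for each probe set, linear and rounded to whole numbers, per the submitters' processing notes. Its version and target are not stated in the sources used here. No column lacked a sample. Array data have no read depth, and 5 arrays per group limit the precision.

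Of 15899 probe sets, 40 are controls; of the others 12562 carry 1 gene symbol, 332 several and 2965 none, by the platform annotation, with 1 symbol updated through the RefSeq gene table (GRCr8). All 81 member genes matched that table.

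Groups were compared with limma 3.58.1 (R 4.3.3; lmFit, eBayes with a mean-variance trend) on log2(signal + 16), two-sided. The pseudocount understates the fold of dim genes. The code was tested on simulated data. The fit was repeated with a pseudocount of 1 or 64, with quantile normalization, centring or hybridization control scaling, with no filter or a 50% filter, with eBayes robust or without trend, with array weights, with a replicate block, on other probe sets, and without each animal. Members and lists were chosen with earlier results of these data known. Named were all tested Uba, Ube3, Ube4 and Cul genes. Of Ube2 and Usp genes, up to 10 calls in each direction, the 3 brightest and those with split probe sets were named, and of each pathway list up to 4 calls. Other names were chosen after their values were seen. The labels name separate animals. Coordinates are used only for promoters.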

Additional observations from a re-analysis of the deposited data

Results flagged for a closer look

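In 146 groups of 5 animals (each named gene in both treatments), 1 animal stood apart from the rest in 2, judged by the gap to the nearest animal over the group's range (critical value 0.71). Chance alone gives about 1 in 20 groups. Otud1 in RG3487 animal 5 read 74, against 52 to 56 in the others (ratio 0.818). Ube2j1 in RG3487 animal 2 read 158, against 177 to 182 (ratio 0.792).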

How the results depend on the processing

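Counts here are of probe sets, higher and lower with RG3487, and causes were not tested. Scaling moved them most. With quantile normalization all probe sets gave 1425 higher and 1195 lower (2443 and 852 as deposited), all members 9 and 6, Uba 1 lower, Ube2 4 and 2, Ube3 and Ube4 0 higher, Usp 4 and 2, and Cul 1 higher. With median centring the counts were 1359 and 1335 over all probe sets, 14 and 5 over members, 5 and 2 for Ube2, 1 higher for Ube3 and Ube4, 2 lower for Usp and 1 higher for Cul. With spike-in scaling they were 6683 and 354, 84 and 0 over members, 4 higher for Uba, 33 for Ube2, 9 for Ube3 and Ube4, 31 and 0 for Usp, and 7 and 0 for Cul. Ube2 had 1 lower with array weights and 1 lower with the lowest 50% left out, where Cul had 0 lower. Without the filter Usp had 2 lower and Cul 1 higher, without the eBayes trend Cul had 1 higher, and with 1 probe set per gene members had 1 lower and Usp 0. Leaving out 1 animal gave 1803 to 2560 higher and 688 to 889 lower over all, 19 to 30 and 1 to 3 over members, 0 to 1 and 0 to 0 for Uba, 7 to 9 and 0 to 1 for Ube2, 2 to 4 higher and 0 to 0 lower for Ube3 and Ube4, 9 to 16 and 1 to 1 for Usp, and 1 to 2 and 0 to 1 for Cul.

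The sources name 10 different animals, and same-numbered animals deviated together weakly (correlations of -0.0371 to 0.174). The animals numbered 2 matched each other best (0.174), and RG3487 animal 4 matched vehicle animal 4 best, while the rest matched another number. So few correlations cannot settle whether the numbers pair animals, and the main fit used no block. With the replicate number as a block 2098 rose and 820 fell over all, 2 rose in Ube3 and Ube4 and 1 in Cul. Calls of Cul3, Ube2q2 and Ube3al1 were lost.

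These log2 changes, uncalled except that of Ubl4a, changed sign. With spike-in scaling Cul4b was 0.18, Uba6 0.0733, Ube2n 0.16, Ube3b 0.17, Usp1 0.17, Usp7 0.15 and Usp9x 0.11. With array weights Cul4b was 0.0048. Ube4b was -0.0864 with quantile normalization and -0.0591 with centring. On other probe sets Uba6 was 0.21, Ube2g2 -0.0020, Ube2n 0.26, Ube4b -0.0818, Ubl4a -0.0215, Usp1 0.12 and Usp7 0.21 and 0.20. Without 1 animal the ranges were -0.0842 to 0.0414 for Cul4b, -0.20 to 0.0506 for Ube2n, -0.0801 to 0.0334 for Ube3b, -0.0311 to 0.0665 for Ube4b, -0.0601 to 0.0399 for Usp1 and -0.11 to 0.0122 for Usp7. Dim signals limit Cul7, Ube2c, Ube2o and Uba7.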
